A study of Mus musculus with 13 samples.

Results

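The replication-dependent histone genes supply the histone proteins that package newly copied DNA. They were taken here as every gene of the deposited table whose symbol starts with Hist1h, Hist2h, Hist3h or Hist4h, which gave 68 of 23235 genes. By histone class these were 6 genes for the linker histone H1, 18 for H2A, 19 for H2B, 12 for H3 and 13 for H4, the core histones around which DNA is wound. Of the H2B genes, Hist3h2bb-ps is annotated as a processed pseudogene and is counted here by its symbol. By gene cluster, 54 belong to Hist1 on chromosome 13, 10 to Hist2 on chromosome 3 and 3 to Hist3 on chromosome 11, and Hist4h4 lies alone on chromosome 6.

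Most messenger RNAs end in a poly(A) tail, but the standard mRNA of these genes ends just after a short stem-loop, a hairpin that the stem-loop binding protein SLBP holds and behind which the U7 small nuclear ribonucleoprotein directs the cut. The same genes can also give polyadenylated transcripts, by reading on past the stem-loop to a downstream poly(A) signal, and such forms are known from cells that have left the cell cycle. MTR4 is the helicase that feeds RNA to the nuclear exosome, the complex that degrades RNA from its 3′ end.

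The study measured polyadenylated RNA in mouse oocytes that had lost MTR4 or were wild type (WT), after each oocyte had been parted into nucleus and cytoplasm. The labels list 13 libraries, each from 10 nuclei or 10 cytoplasms and made with Smart-seq2, which copies RNA from the poly(A) tail: MTR4-null nuclei and MTR4-null cytoplasms at day 21 (2 libraries each), WT nuclei at day 14 (2) and day 21 (3), and WT cytoplasms at day 14 (2) and day 21 (2). They give neither the strain nor the driver of the deletion. The table holds 1 value per gene for each genotype and compartment, the WT columns name no day, and the depth in reads behind each column is unknown. Genotype and age can therefore not be told apart, and no difference below has a replicate check or a p-value.

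A deposited value is per length of gene within a column, and the columns are not on a common scale. Column totals were 1396105 in null and 594034 in WT nuclei, and 3007242 in null and 6637345 in WT cytoplasms. Each column was therefore divided by its median ratio to the mean column, and a relative difference is the difference of log2(rescaled value + 1), which sets a gene against the median gene and reads too small for low genes. The call higher or lower needs a difference of at least 2-fold. As deposited, the median gene with a mean rescaled value of at least 1 differed by 0.92 on the log2 scale, null over WT, in the nucleus and by -0.82 in the cytoplasm. Skiv2l2, the gene for MTR4, had 3.54 in null and 13.3 in WT nuclei, and 4.36 in null and 187 in WT cytoplasms, so the labels held in both compartments. All 15 oocyte markers were above 0 in every column, with summed levels of 17845 parts per 1000000 of the column total (ppm) in null and 21713 ppm in WT nuclei, and 28391 ppm in null and 34067 ppm in WT cytoplasms. The 17 markers of granulosa cells, which surround the oocyte, summed to 10.3 ppm in null and 23.4 ppm in WT nuclei, and to 81.5 ppm in null and 65.2 ppm in WT cytoplasms. Of these markers, 2 were higher and 3 lower in the null nucleus than in the WT nucleus, and 7 were higher and 1 lower in the null cytoplasm than in the WT cytoplasm. Over all genes, 17.3% were higher and 12.0% lower in the null nucleus, and 15.8% higher and 12.8% lower in the null cytoplasm. Gatm was listed at 0 in both nuclei and in the WT cytoplasm, Foxl2, Inha, Gja1 and Fst were listed at 0 in the null nucleus, and Amh and Amhr2 in the WT nucleus. The part of these cells in the histone values was not tested, and fewer cells of a type cannot be told apart from less RNA per cell.

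The stem-loop decides where the standard histone mRNA ends, so it is shown for the genes on which the results turn, from GENCODE M21 transcripts on build GRCm38 (the submitters' notes name mm9, so these positions are not those of the table). Each is written 5′ to 3′ on the strand of the gene, with the stem-loop in capitals and its flanks in lower case.
Hist1h4i (chr13:22040966-22040981, minus strand): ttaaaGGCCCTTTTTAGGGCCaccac
Hist2h4 (chr3:96262939-96262954, minus strand): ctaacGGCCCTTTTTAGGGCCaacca
Hist1h4c (chr13:23698089-23698104, minus strand): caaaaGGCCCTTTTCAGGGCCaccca
Hist4h4 (chr6:136803998-136804013, minus strand): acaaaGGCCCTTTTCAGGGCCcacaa
Hist1h4h (chr13:23531458-23531473, plus strand): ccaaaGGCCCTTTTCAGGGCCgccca
Hist1h4b (chr13:23757366-23757381, plus strand): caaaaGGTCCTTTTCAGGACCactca
Hist1h4a (chr13:23760800-23760815, minus strand): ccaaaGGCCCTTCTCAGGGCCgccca
Hist1h2ac (chr13:23683477-23683492, minus strand): ccaaaGGCTCTTTTCAGAGCCcccac
Hist1h2ag (chr13:22042483-22042498, minus strand): acaaaGGCTCTTTTCAGAGCCaccta
Hist2h2ac (chr3:96220418-96220433, minus strand): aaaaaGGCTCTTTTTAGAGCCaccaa
Hist2h3c1 (chr3:96247327-96247342, plus strand): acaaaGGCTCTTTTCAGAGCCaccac

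The search asked for a perfect 6-base stem that starts with GG and a 4-base loop of C and T. It found a match in the annotated transcripts of 40 of the 68 histone genes, and in 0.98% of 21877 protein-coding gene symbols, these 40 included. The form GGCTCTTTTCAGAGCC was the most frequent, in 26 genes, and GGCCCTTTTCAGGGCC came next with 7. The form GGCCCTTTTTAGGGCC was found in 2 histone genes, Hist1h4i and Hist2h4. These were the 2 genes with the largest relative difference between null and WT nuclei. That pairing was noticed after the values were seen and is a description of 2 genes.

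The deposited values of the histone genes were mostly low. How reads shared by close copies were counted is not known, so a listed 0 need not mean that RNA was absent. Of the 68, 16 were listed at 0 in all 4 columns, 17 more stayed under 5 throughout, and 28 were above 0 in every column. Above 0 were 41 genes in null and 36 in WT nuclei, and 38 in null and 45 in WT cytoplasms. Their summed value was 658 ppm of the column total in null and 286 ppm in WT nuclei. In the cytoplasm it was 1135 ppm in null and 479 ppm in WT. A single gene weighed heavily in these sums. Hist1h2bc, an H2B gene, held 22.9% of the histone sum in null and 33.0% in WT nuclei, and 43.9% in null cytoplasms. In the WT cytoplasm the leading gene was Hist1h2aa, which encodes the germline H2A known as TH2A, with 42.0%. Without both genes the histone sum was 441 ppm in null and 130 ppm in WT nuclei, and 566 ppm in null and 193 ppm in WT cytoplasms.

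In the nucleus, 24 of the 68 histone genes were higher in null than in WT oocytes, or 35.3%, against 17.3% of all genes, and 2 were lower, against 12.0% of all genes. In the cytoplasm, 20 were higher in null, or 29.4%, against 15.8% of all genes, and 7 were lower, against 12.8% of all genes. On the deposited values 30 were higher in null nuclei (29.2% of all genes) and 0 lower (2.50%), and 19 were higher in null cytoplasms (11.0%) and 14 lower (30.2%), so the number lower shifted with the scale. Of the 68 genes, 13 were higher in both compartments, against 10.1% of all genes, and 8 of these 13 were H4 genes. The median relative difference over the 68 genes was 0.01 (nucleus) and 0 (cytoplasm), against 0 over all genes in both, with 16 of the 68 at 0 throughout.

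**Figure D1:**
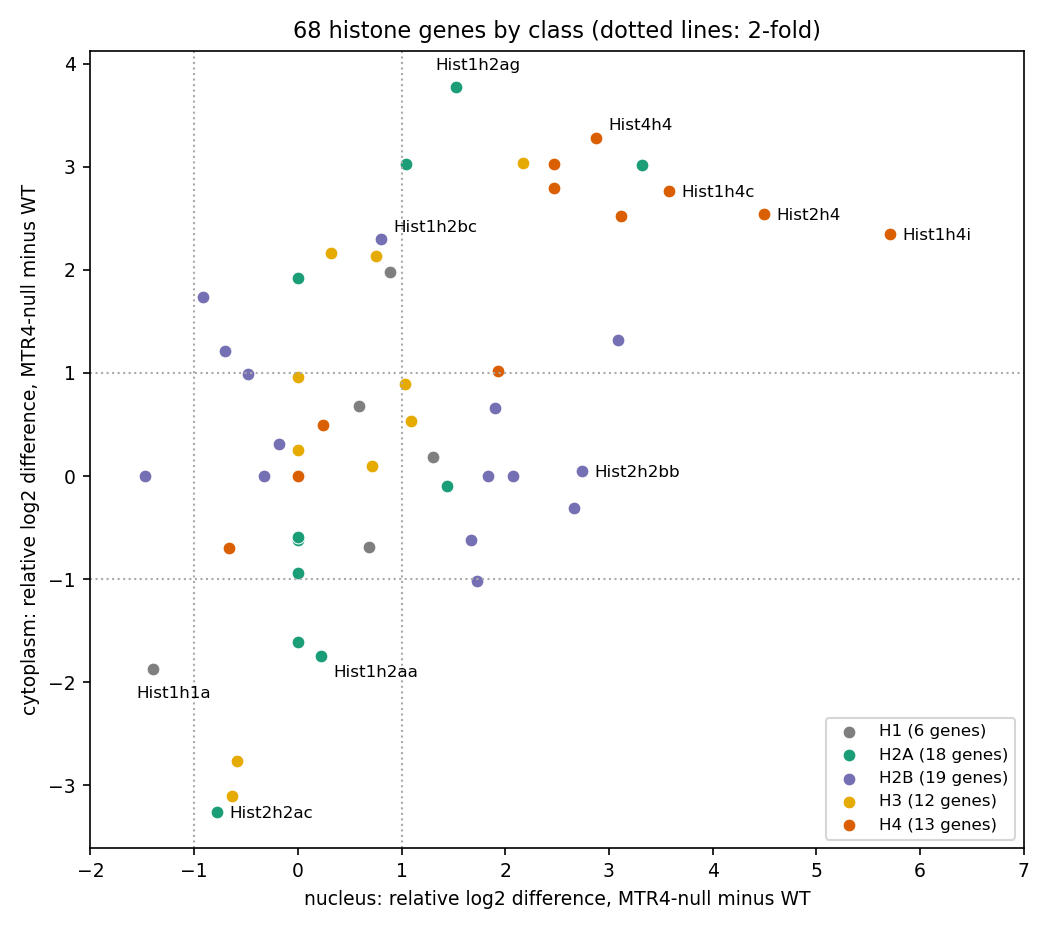
Relative log2 difference between MTR4-null and WT oocytes for the 68 histone genes, in the nucleus (horizontal axis) and in the cytoplasm (vertical axis), coloured by class; 1 point per gene, with 16 genes listed at 0 in all columns at the origin. Of the 13 genes higher in both compartments, 8 were H4 genes, led by Hist1h4i at 5.71 in the nucleus. The others were Hist1h2ac, Hist1h2ag, Hist2h2ab, Hist2h2be and Hist2h3c1. Hist1h1a and Hist2h2ac lie among the lower points. Hist1h1a was called lower in the nucleus on the relative scale but not as deposited (-0.32).

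Within a column no scaling enters, and there H4 took a larger share in null oocytes. H4 genes made up 45.7% of the histone sum in null and 10.8% in WT nuclei, and 28.9% in null and 12.1% in WT cytoplasms. The summed H4 value was 3.6 times that of H2A in null and 0.455 times in WT nuclei, and 2.88 times in null and 0.267 times in WT cytoplasms. Against H2B the ratios were 1.32 in null and 0.209 in WT nuclei, and closer together in the cytoplasm, 0.534 in null and 0.403 in WT. Against H3 they were 11.4 in null and 2.52 in WT nuclei, and 7.82 in null and 3.43 in WT cytoplasms. Against H1 they were 14.9 in null and 1.17 in WT nuclei, and 8.89 in null and 1.36 in WT cytoplasms. Each of these ratios was larger in the null column of its pair. All share the H4 sum, so they are not independent of each other. The H2A ratios lean on Hist1h2aa, with 92.2 of 116.4 in null and 36.8 of 40.5 in WT nuclei. In the cytoplasm this gene had 213 of 342.7 in null and 1336 of 1442.5 in WT. Ratios without it were not computed.

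**Figure D2:**
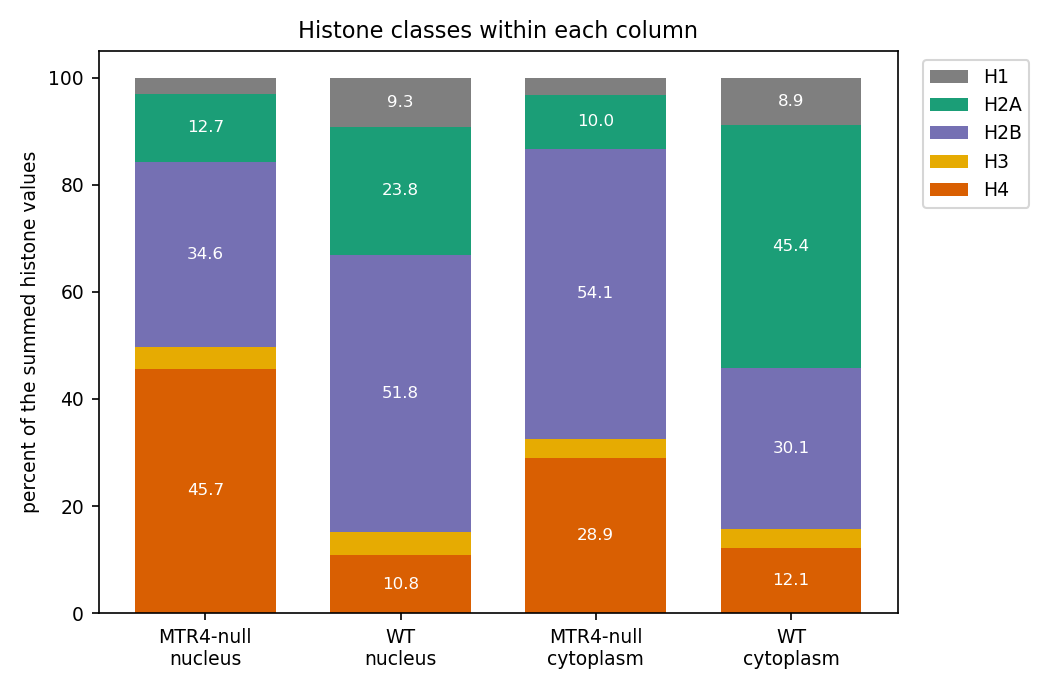
Share of the summed value of the 68 histone genes held by each class, in percent, in each of the 4 columns, with null beside WT in each compartment. H4 holds 45.7% in null and 10.8% in WT nuclei, and H2A holds 10.0% in null and 45.4% in WT cytoplasms.

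Of the 13 H4 genes, the same 8 were higher in null in both compartments, against 10.1% of all genes, and none was lower in either. By compartment, 17.3% of all genes were higher and 12.0% lower in the null nucleus, and 15.8% and 12.8% in the null cytoplasm. As deposited, 9 were higher in the nucleus (29.2% of all genes), while in the cytoplasm 7 were higher (11.0%) and 1 was lower (30.2%). Hist1h4i had 109.8 in null and 0.70 in WT nuclei, and 171 in null and 59.5 in WT cytoplasms. Its relative difference was 5.71 (nucleus) and 2.35 (cytoplasm). Hist2h4, the H4 gene of the Hist2 cluster, had 135 in null and 2.51 in WT nuclei, with 204 in null and 61.8 in WT cytoplasms. Its relative difference was 4.50 (nucleus) and 2.54 (cytoplasm). Both had their lowest deposited value of the 4 columns in the WT nucleus, the column with the smallest total. So did Hist1h4a and Hist1h4d, which were not called on the relative scale.

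Hist1h4c had 104 in null and 3.80 in WT nuclei, and 214 in null and 55.3 in WT cytoplasms, with relative differences of 3.58 (nucleus) and 2.77 (cytoplasm). Hist4h4, the sole member of its cluster, had 22.8 in null and 1.20 in WT nuclei, and 82.1 in null and 12.6 in WT cytoplasms. Its relative differences were 2.88 (nucleus) and 3.28 (cytoplasm). All 4 of these genes encode the core histone H4 and were called higher in both compartments on every one of the 4 scales tried. Hist1h4h had 17.9 in null and 1.27 in WT nuclei, and 184 in null and 46.0 in WT cytoplasms (relative 2.47 in nuclei and 2.80 in cytoplasms). Hist1h4b had 7.48 in null and 0.399 in WT nuclei, and 39.3 in null and 5.90 in WT cytoplasms (relative 2.47 in nuclei and 3.03 in cytoplasms). Hist1h4f had 4.64 in the null nucleus and 8.74 in the null cytoplasm and was listed at 0 in both WT columns, so no fold is given. The eighth, Hist1h4m, was low, with 1.70 in null and 0 in WT nuclei, and 4.81 in null and 2.69 in WT cytoplasms (relative 1.93 in nuclei and 1.01 in cytoplasms). Its cytoplasmic call was lost as deposited (0.66).

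Not every H4 gene was called. Hist1h4d had 8.78 in null and 3.41 in WT nuclei, and 56.8 in null and 73.4 in WT cytoplasms, with relative differences of 0.24 (nucleus) and 0.50 (cytoplasm). Hist1h4a had 6.75 in null and 5.13 in WT nuclei, and 21.8 in null and 67.6 in WT cytoplasms, with relative differences of -0.66 (nucleus) and -0.70 (cytoplasm). As deposited, Hist1h4d passed 2-fold in the nucleus (1.15) and Hist1h4a was lower in the cytoplasm (-1.59). In the WT cytoplasm these were the 2 highest H4 genes, above Hist2h4 and Hist1h4i, while in the null nucleus both lay under Hist4h4. The other 3, Hist1h4j, Hist1h4k and Hist1h4n, were listed at 0 in all columns.

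**Figure D3:**
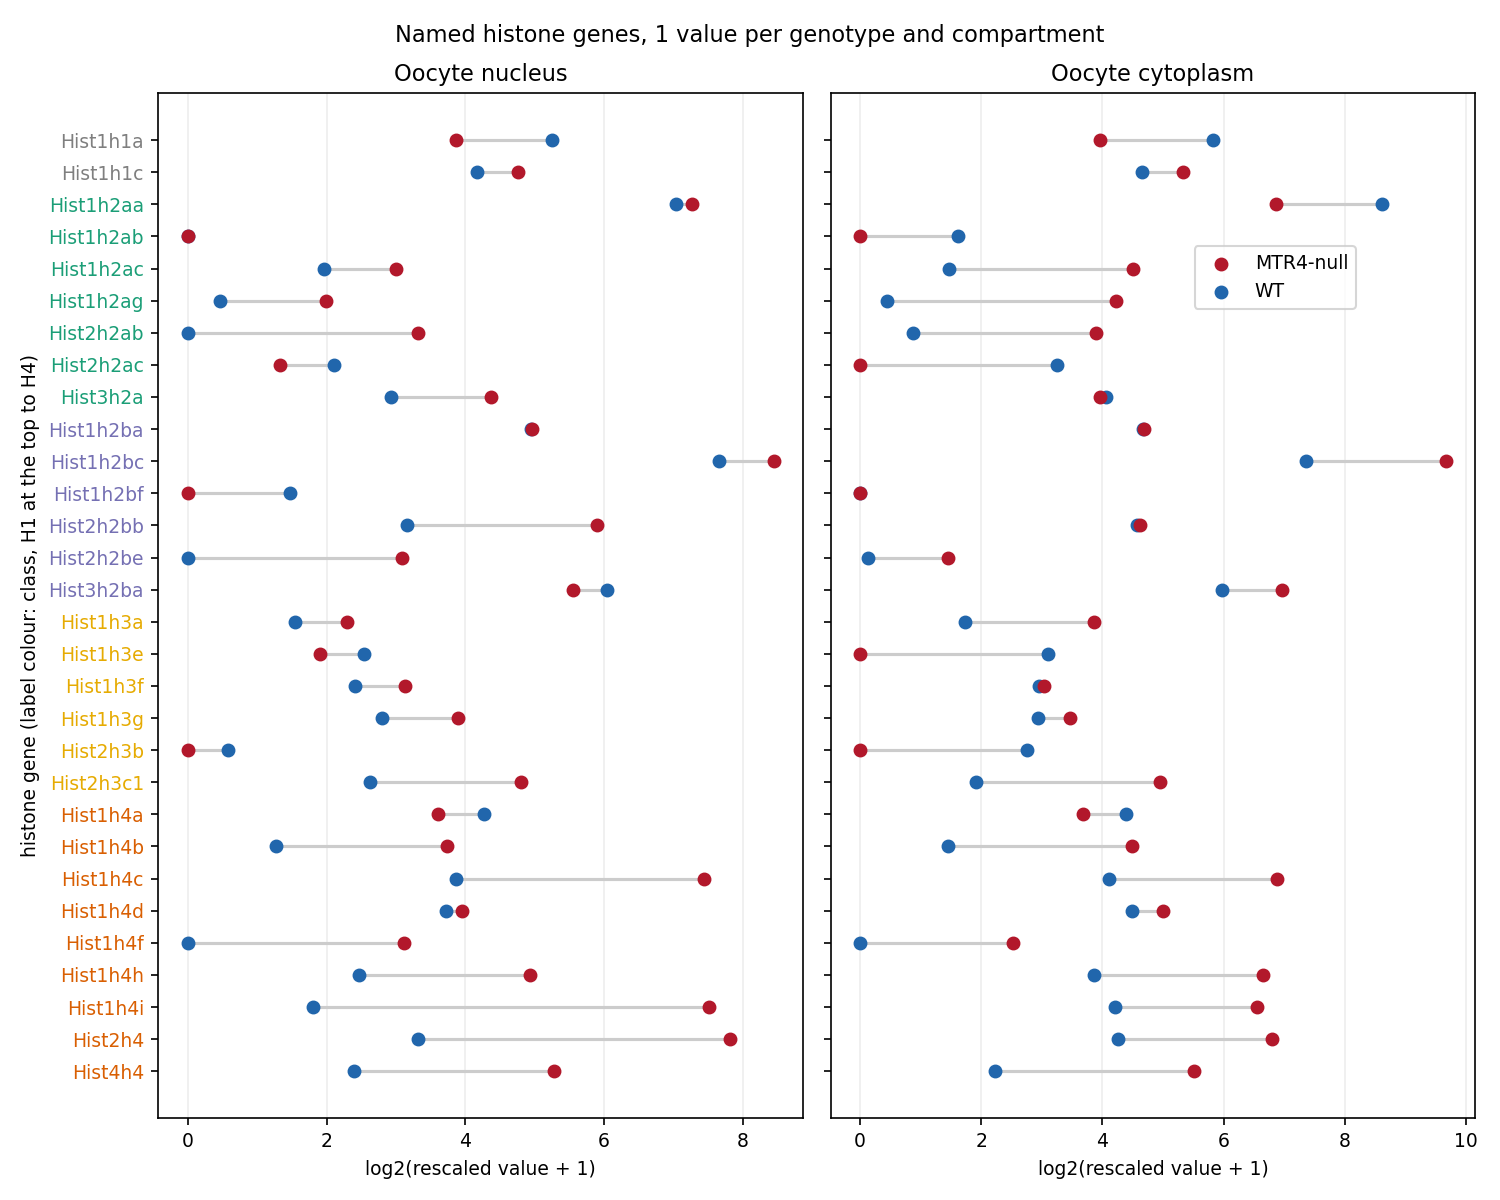
Rescaled level, as log2(rescaled value + 1), of the 30 named histone genes in MTR4-null (red) and WT (blue) oocytes, nucleus on the left and cytoplasm on the right; 1 value per column, so no error bars. The 7 H4 genes among them that were called higher show red right of blue in both panels, and Hist1h2aa shows near equal nuclear levels but a lower null level in the cytoplasm.

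Among H2B genes, 8 of 19 were higher (17.3% of all genes) and 1 was lower (12.0%) in the null nucleus. In the null cytoplasm, 4 were higher (15.8%) and 1 was lower (12.8%). As deposited, 10 were higher (29.2% of all genes) and none lower (2.50%) in the nucleus. The cytoplasm had 3 higher (11.0%) and 3 lower (30.2%). Hist1h2bc had 210.5 in null and 56.2 in WT nuclei, and 1497 in null and 558 in WT cytoplasms. Its relative difference was 0.80 in the nucleus, under 2-fold (1.89 as deposited), and 2.30 in the cytoplasm. Hist2h2bb showed the other order, with 35.4 in null and 2.22 in WT nuclei (relative 2.74) but 43.5 in null and 77.5 in WT cytoplasms (relative 0.05). Hist2h2be had 4.54 in null nuclei and was listed at 0 in WT nuclei, and had 3.21 in null and 0.336 in WT cytoplasms (relative 1.32). Hist3h2ba was high in all columns, with 27.9 in null and 18.3 in WT nuclei, and 228 in null and 211 in WT cytoplasms, and was called in neither. The germline H2B gene Hist1h2ba, known as TH2B, had 18.2 in null and 8.41 in WT nuclei, and 45.6 in null and 83.7 in WT cytoplasms, with relative differences of 0.01 in each (1.03 in the nucleus as deposited). The single lower H2B call in the nucleus was Hist1h2bf, listed at 0 in null and at 0.498 in WT nuclei, and at 0 in both cytoplasms. It was not called as deposited (-0.58). The remaining nuclear H2B calls, Hist1h2bb, Hist1h2bh, Hist1h2bl, Hist1h2bm, Hist1h2bp and Hist3h2bb-ps, all had under 10 in the null nucleus and under 0.5 in the WT nucleus.

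Among H2A genes, 4 of 18 were higher (17.3% of all genes) and none was lower (12.0%) in the null nucleus. In the null cytoplasm, 4 were higher (15.8%) and 3 were lower (12.8%). On each of the other 3 scales, 4 were higher and 6 lower in the cytoplasm, so the balance there turned. Over all genes as deposited, 11.0% were higher and 30.2% lower in the cytoplasm. Hist1h2aa had 92.2 in null and 36.8 in WT nuclei (relative 0.22, as deposited 1.30), but 213 in null and 1336 in WT cytoplasms (relative -1.75). It held 6.24% of the histone sum in null and 42.0% in WT cytoplasms, and the whole H2A class held 10.0% in null and 45.4% in WT. Hist1h2ag had 1.81 in null and 0.108 in WT nuclei, and 32.4 in null and 1.22 in WT cytoplasms. With 1.53 (nucleus) and 3.78 (cytoplasm), it had the largest cytoplasmic relative difference of the 68 genes. Hist1h2ac had 4.24 in null and 0.811 in WT nuclei, and 39.7 in null and 6.02 in WT cytoplasms (relative 1.04 in nuclei and 3.03 in cytoplasms); its nuclear call was lost on 2 of the other scales. Hist2h2ab had 5.43 in null and 0 in WT nuclei, and 25.6 in null and 2.86 in WT cytoplasms (relative 3.32 in nuclei and 3.02 in cytoplasms). Hist3h2a had 11.9 in null and 1.86 in WT nuclei (relative 1.44, but 0.64 with factors read from the digits), and 26.8 in null and 53.2 in WT cytoplasms (relative -0.10). Hist2h2ac had 0.920 in null and 0.933 in WT nuclei, and was listed at 0 in the null cytoplasm and at 29.2 in the WT cytoplasm. Hist1h2ab was listed at 0 in every column but the WT cytoplasm, where it had 7.01.

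The 12 H3 genes were low, with no value above 55 in any column, and held 3.99% of the histone sum in null and 4.3% in WT nuclei, and 3.7% in null and 3.53% in WT cytoplasms. In the nucleus 3 were higher in null (17.3% of all genes) and none was lower (12.0%). In the cytoplasm 3 were higher (15.8%) and 2 were lower (12.8%). With factors read from the digits, 2 were higher (11.1% of all genes) and 2 lower (30.7%) in the nucleus. Hist2h3c1 had 16.3 in null and 1.46 in WT nuclei, and 54.9 in null and 9.37 in WT cytoplasms (relative 2.18 in nuclei and 3.04 in cytoplasms). Hist2h3b, of the same cluster, was listed at 0 in both null columns and had 0.140 in WT nuclei and 19.7 in WT cytoplasms. Hist1h3e had 1.65 in null and 1.35 in WT nuclei, and was listed at 0 in the null cytoplasm and at 26.0 in the WT cytoplasm. Hist1h3a was higher in the null cytoplasm, with 24.9 against 7.88 in the WT cytoplasm (relative 2.13), and had 2.35 in null and 0.535 in WT nuclei. Hist1h3g was higher in the null nucleus, with 8.35 against 1.67 in the WT nucleus (relative 1.09), a call that was lost on 2 of the other scales. Its cytoplasmic values were 18.5 in null and 22.7 in WT. Hist1h3f had 4.67 in null and 1.21 in WT nuclei, and 13.3 in null and 22.8 in WT cytoplasms, and was called in neither, though its nuclear difference was 1.36 as deposited.

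Of the 6 linker histone genes, 1 was higher and 1 was lower in null in each compartment. The shares of all genes were 17.3% higher and 12.0% lower in the nucleus, and 15.8% and 12.8% in the cytoplasm. Hist1h1a, which encodes H1.1, had 8.16 in null and 10.5 in WT nuclei, and 26.7 in null and 190.4 in WT cytoplasms. Its relative difference was -1.40 (nucleus) and -1.87 (cytoplasm), and the nuclear one was -0.32 as deposited, under 2-fold. Hist1h1c, which encodes H1.2, had 15.8 in null and 4.78 in WT nuclei, and 72.4 in null and 82.2 in WT cytoplasms (relative 0.59 in nuclei and 0.68 in cytoplasms), and its nuclear difference was 1.54 as deposited. The testis linker histone gene Hist1h1t was listed at 0 in all columns.

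By cluster, 15 of the 54 Hist1 genes were higher and 2 lower in the null nucleus, and 15 were higher and 5 lower in the null cytoplasm, against the shares of 17.3% and 12.0% (nucleus) and of 15.8% and 12.8% (cytoplasm) over all genes. As deposited, 22 were higher (29.2% of all genes) and none lower (2.50%) in the nucleus. The cytoplasm had 14 higher (11.0%) and 12 lower (30.2%). Of the 10 Hist2 genes, 6 were higher and none lower in the null nucleus, and 4 were higher and 2 lower in the null cytoplasm. Hist2 held 21.6% of the histone sum in null and 4.27% in WT nuclei, and 9.77% in null and 6.34% in WT cytoplasms, of which Hist2h4 was the largest part in each null column. The 3 Hist3 genes held 4.51% in null and 11.8% in WT nuclei, and 7.57% in null and 8.4% in WT cytoplasms.

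The share of genes called differed with the WT level, so the counts were set beside all genes of a like WT level, which is also a term of the difference. In the nucleus, 8 of 32 histone genes listed at 0 in WT were higher in null, against 8.57% of all such genes. For WT nuclear values above 0 and up to 0.5, it was 6 of 12, against 26.2%. For values above 0.5 and up to 2, it was 7 of 13, against 34.9%, and for values above 2 and up to 10, it was 3 of 7, against 21.7%. None of the 4 histone genes above 10 in the WT nucleus was called higher, against 8% of all genes above 10 and up to 50 and 7.57% of those above 50. In the cytoplasm, 2 of 23 histone genes at 0 in WT were higher in null, against 4.29% of such genes, and 3 of 7 above 0.5 and up to 2, against 23.9%. Further, 8 of 16 histone genes above 2 and up to 10 in WT were higher in null, against 33.9% of such genes. Of 7 above 10 and up to 50 in the WT cytoplasm, 2 were higher, against 32.5%. Of 13 above 50, 4 were higher, against 9.31%. These 4 were Hist1h2bc, Hist1h4c, Hist1h4i and Hist2h4, of which 3 are H4 genes.

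The table also allowed nucleus to be set against cytoplasm, relative to the median gene of each column. In null oocytes 10 histone genes were higher in the nucleus, against 8.96% of all genes, and 9 were lower, against 6.46%. In WT oocytes 3 were higher in the nucleus, against 7.36% of all genes, and 8 were lower, against 5.39%. On the deposited values 6 were higher (2.52% of all genes) and 29 lower (45.9%) in null, and 0 higher (1.30%) and 39 lower (59.6%) in WT, so the split rests on the rescaling. For Hist1h4i the difference of nucleus over cytoplasm was 0.96 in null, under 2-fold, and -2.40 in WT. For Hist2h4 the nuclear difference was 1.01 in null and -0.94 in WT. For Hist1h2aa it was 0.40 in null and -1.58 in WT. Hist1h2bc ran the other way, with -1.22 in null and 0.29 in WT, and so did Hist1h2ag, with -2.22 in null and 0.03 in WT. Hist1h4h was lower in the nucleus in both genotypes, with -1.72 in null and -1.39 in WT. These comparisons use the same 4 values as those of null with WT and add no independent data.

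The genes were next grouped by their annotated ends in GENCODE M21. In 20 genes the longest run after the stem-loop exceeded 60 bases, in 20 the transcript ended at the stem-loop, and 28 had no full stem-loop match in an annotated transcript. The last group mixes short models, such as Hist1h2bl with 381 bases, with long ones. Among the long ones are Hist1h2bc with 1156 bases and Hist2h2be with 2620, which has AATAAA in its last 50 bases. It is therefore not a clean contrast to the genes with a run-on form. Over all genes, 17.3% were higher and 12.0% lower in the null nucleus, and 15.8% higher and 12.8% lower in the null cytoplasm. Of the 20 with a run-on form, 10 were higher and none lower in the null nucleus, and 7 were higher and none lower in the null cytoplasm. As deposited, 7 were higher and 3 lower in the cytoplasm, where the shares of all genes were 11.0% and 30.2%. Of the 20 that ended at the stem-loop, 8 were higher and 1 lower in the null nucleus, and 7 were higher and 2 lower in the null cytoplasm, where 6 were higher and 3 lower as deposited. Of the 28 without a match, 6 were higher and 1 lower in the null nucleus, and 6 were higher and 5 lower in the null cytoplasm, where 6 were higher and 8 lower as deposited. The genes listed at 0 in every column were spread unevenly, with 2 in the first group and 7 in each of the others. The run after the stem-loop was 330 bases in Hist1h4i, 1257 in Hist2h4, 454 in Hist1h4c and 2445 in Hist4h4, but also 770 in Hist1h4d and 108 in Hist1h4a, which were not called. Hist1h4b and Hist1h4f, both higher in null, had annotated runs of 28 and 33 bases. A run past the stem-loop does not mean that a poly(A) signal was found. AATAAA was in the last 50 bases of an annotated transcript in 15 of the 68 genes, against 65.8% of protein-coding gene symbols. Hist2h4, Hist4h4 and Hist1h4a had it, while Hist1h4i, Hist1h4c and Hist1h4d did not. The table gives 1 value per gene, so whether reads lay past the stem-loop was not tested.

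**Figure D4:**
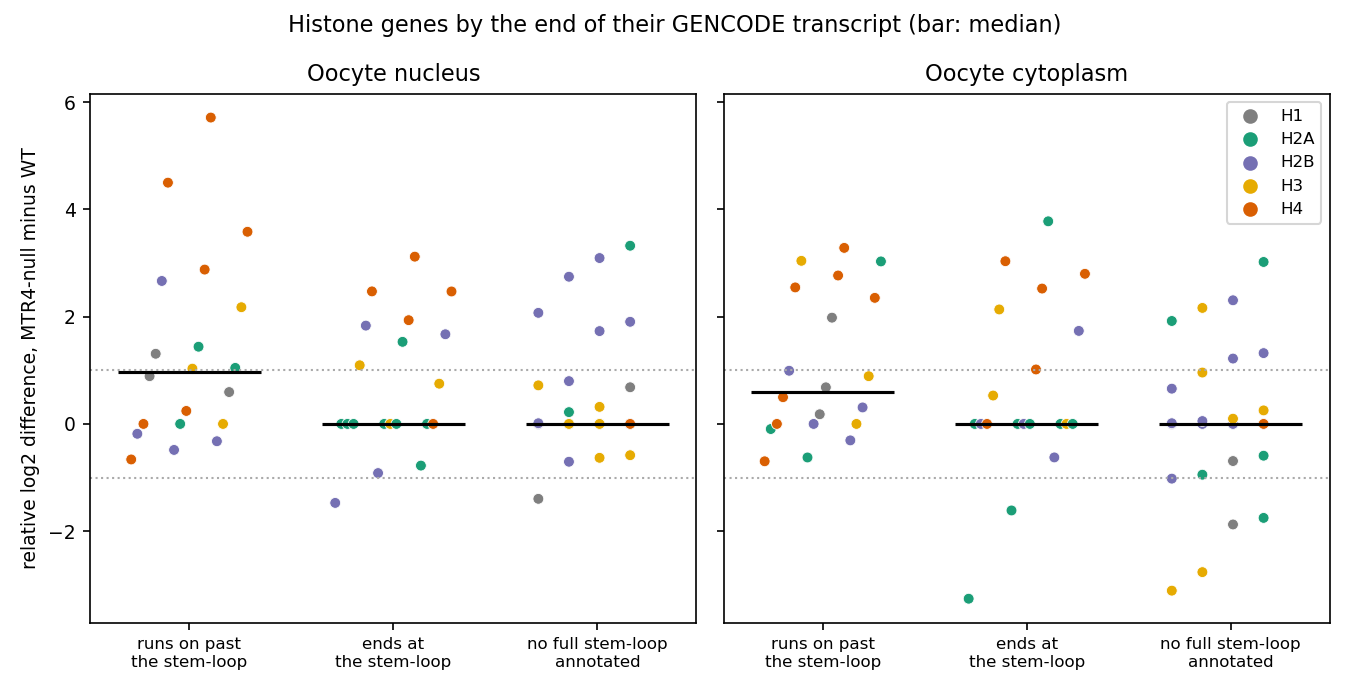
Relative log2 difference between MTR4-null and WT oocytes for the 68 histone genes grouped by annotated transcript end, with the nucleus and the cytoplasm in separate panels; each point is 1 gene and each line a group median. The 20 genes that run on past the stem-loop have medians of 0.96 (nucleus) and 0.59 (cytoplasm), and the other 2 groups have medians of 0. The group without a full stem-loop match mixes short and long transcript models.

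Histone genes of a class are close copies, which limits the value of single genes. In GENCODE M21 transcripts, 35 of the 68 genes had under 50% of their 50-base stretches to themselves, with a median of 45.45%. The sources used here do not say how the authors' counting shared such reads. Of the leading H4 genes, Hist2h4 had 99.0% of its stretches to itself, Hist4h4 91.9%, Hist1h4c 80.4% and Hist1h4i 71.1%, while Hist1h4b had 24.1%. Hist1h2bc, with 43.9% of the histone sum in null cytoplasms, had 69.4%. It shared stretches with 220 genes, among them many that are not histone genes. Hist1h2ag had 21.1%, and Hist2h2bb, Hist2h3b and Hist2h3c1 had 0.0%, overlapping gene models included, so their values are uncertain.

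Many H2A and H2B genes lie head to head and share a promoter region. Within 1000 bases, 14 pairs of these genes face each other, all of an H2A with an H2B gene but for Hist1h2bh with the H3 gene Hist1h3f. Hist1h2ac and Hist1h2bc, 250 bases apart, had relative differences of 1.04 and 0.80 in the nucleus and of 3.03 and 2.30 in the cytoplasm. Hist2h2ac and Hist2h2be, 238 bases apart, had -0.78 and 3.09 in the nucleus and -3.26 and 1.32 in the cytoplasm. The germline pair Hist1h2ba and Hist1h2aa, 305 bases apart, had 0.01 and 0.22 in the nucleus and 0.01 and -1.75 in the cytoplasm. Both genes of the first pair were called higher in the null cytoplasm, while of the second pair 1 was higher and 1 lower there.

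Promoter sequences of RefSeq (GRCm38.p6, 250 bases before to 50 after the start) were matched for 61 of the 68 genes, giving 62 promoters. Both strands were searched for TATAAA (the letters of a TATA box), for CCAAT (those of a CCAAT box) and for the octamer motif ATTTGCAT. A match could lie anywhere in the window, and none of these motifs contains another. TATAAA was found in 56.5% of histone promoters, against 13.6% of 32851 promoters in the table, and CCAAT in 85.5%, against 37.4%. CCAAT was in each promoter of H1, H2A, H2B and H3 genes but in 3 of 12 H4 promoters. ATTTGCAT was found in 22.6%, against 1.7%, with 7 of 17 H2A and 7 of 17 H2B promoters and none of the others. The windows of head-to-head genes can overlap, as those of Hist1h2aa and Hist1h2ba do, so the same site can count for both genes. The shares of all 3 motifs are therefore not counts of separate sites. The promoter of Hist1h4i, the gene with the largest nuclear difference, and that of Hist1h2ac, which faces Hist1h2bc, are shown with each match in capitals, 5′ to 3′ on the strand of the named gene.
Hist1h4i (chr13:22041313-22041612, minus strand): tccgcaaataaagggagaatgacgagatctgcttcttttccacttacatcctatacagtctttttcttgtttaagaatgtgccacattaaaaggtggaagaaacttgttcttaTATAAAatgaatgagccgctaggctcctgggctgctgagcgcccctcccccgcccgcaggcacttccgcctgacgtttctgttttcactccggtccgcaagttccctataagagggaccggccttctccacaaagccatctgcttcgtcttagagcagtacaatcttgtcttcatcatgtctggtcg
Hist1h2ac (chr13:23683910-23684209, minus strand): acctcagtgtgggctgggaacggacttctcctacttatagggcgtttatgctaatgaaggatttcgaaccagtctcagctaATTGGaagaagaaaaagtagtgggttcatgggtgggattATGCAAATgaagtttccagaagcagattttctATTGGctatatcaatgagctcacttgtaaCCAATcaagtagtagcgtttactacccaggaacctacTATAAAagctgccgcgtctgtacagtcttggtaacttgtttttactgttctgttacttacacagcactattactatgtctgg
The Hist1h4i window holds 1 match, TATAAA, and the Hist1h2ac window holds 5, of which 3 are CCAAT and the others 1 octamer and 1 TATAAA. The Hist1h4i match begins at base 114 of a window with 250 bases before the start, so it need not be the TATA box of that gene. A match describes these letters and is not a bound site.

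Other histone genes and the genes that act on histone RNA gave a mixed picture. Of 16 replication-independent histone genes in the table, whose mRNAs carry a poly(A) tail, 4 were higher and 2 lower in the null nucleus, and 4 were higher and 1 lower in the null cytoplasm, beside 17.3% and 12.0% (nucleus) and 15.8% and 12.8% (cytoplasm) of all genes. As deposited, 6 were higher and none lower in the nucleus, and 2 were higher and 6 lower in the cytoplasm, so the cytoplasmic balance turned with the scale. The deposited shares of all genes were 29.2% and 2.50% (nucleus) and 11.0% and 30.2% (cytoplasm). H1foo, the oocyte linker histone, had 4507 in null and 3546 in WT nuclei, and 12825 in null and 70715 in WT cytoplasms (relative -0.76 in nuclei and -1.57 in cytoplasms). H2afz, which encodes the variant H2A.Z, had 340.5 in null and 62.6 in WT nuclei, and 1756 in null and 1119 in WT cytoplasms (relative 1.33 in nuclei and 1.53 in cytoplasms). The medians of this list were -0.02 (nucleus) and 0.10 (cytoplasm), against 0 over all genes.

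Of 31 genes for histone RNA processing and stem-loop factors, 9 were higher (17.3% of all genes) and 2 lower (12.0%) in the null nucleus. In the null cytoplasm, 12 were higher (15.8%) and 4 lower (12.8%). As deposited, 14 were higher and none lower in the nucleus, but 4 were higher and 11 lower in the cytoplasm, so the cytoplasmic balance turned with the scale. All genes as deposited had 29.2% higher and 2.50% lower in the nucleus, and 11.0% and 30.2% in the cytoplasm. Slbp, the stem-loop binding protein, had 571 in null and 1056 in WT nuclei (relative -1.99), and 3078 in null and 12214 in WT cytoplasms (relative -1.10). As deposited its nuclear difference was -0.89, under 2-fold. Coil, the scaffold of Cajal bodies, had 15.0 in null and 2.61 in WT nuclei, and 75.3 in null and 32.3 in WT cytoplasms (relative 1.33 in nuclei and 2.0 in cytoplasms). Cstf2t, a cleavage factor that also acts on histone pre-mRNA, had 19.6 in null and 2.53 in WT nuclei, and 127 in null and 32.9 in WT cytoplasms (relative 1.74 in nuclei and 2.72 in cytoplasms). Lsm11, a core protein of the U7 particle, had 33.1 in null and 23.8 in WT cytoplasms (relative 1.24), a call that was lost as deposited (0.45). Lsm10 went the other way, with 768 in null and 3077 in WT cytoplasms (relative -1.11). Cpsf3 (relative -1.12) and Wdr33 (-1.33) were also lower in the null cytoplasm. As deposited these were -2.0 for Lsm10, -2.01 for Cpsf3 and -2.22 for Wdr33.

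Histone synthesis is coupled to DNA replication in dividing cells. Of 22 DNA replication genes, 2 were higher (17.3% of all genes) and 5 lower (12.0%) in the null nucleus. In the null cytoplasm, 2 were higher (15.8%) and 8 lower (12.8%). The medians of these 22 genes were -0.56 (nucleus) and -0.80 (cytoplasm). As deposited, 5 were higher (29.2% of all genes) and none lower (2.50%) in the nucleus. The cytoplasm had 1 higher (11.0%) and 19 lower (30.2%). Mcm4, a subunit of the replicative helicase, had 22.7 in null and 40.9 in WT nuclei, and 129.6 in null and 630.4 in WT cytoplasms. Ccne1, which encodes cyclin E1, was 1 of the 2 higher genes, with 27.9 in null and 2.80 in WT nuclei, and 145 in null and 57.4 in WT cytoplasms. Of 19 histone chaperone genes, 2 were higher and 2 lower in each compartment, beside the shares of all genes just given. As deposited, 10 were higher and none lower in the nucleus, and none was higher and 8 were lower in the cytoplasm.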

How the data were processed

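Per the labels, polyadenylated RNA of 13 Smart-seq2 libraries was measured. The deposited table, FPKM by its name, was treated as a score, since its 4 columns (1 per genotype and compartment) are not on a common scale; the sources used here do not say how libraries were combined. TopHat2 2.1.1, Cufflinks 2.2.1 and build mm9 are named per the submitters' processing notes, with no role. The digits of the null cytoplasm column also allow that it holds 1 library.

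Columns were divided by median-ratio divisors (0.604 null nucleus, 0.281 WT nucleus, 1.84 null cytoplasm, 3.41 WT cytoplasm), 1 was added and log2 differences were taken over all 23235 genes with no filter; 38 of the 68 members had a mean rescaled value of at least 1. A call needs a 2-fold difference. A planned limma fit was not possible with 1 column per group. Genes were named where a value reached 20 in any column, or among the 6 highest and 6 lowest called differences per compartment, null against WT; others named were chosen after their values were seen. Members and lists were chosen with earlier results of these data known. Python 3.11.15, pandas 2.3.3, numpy 2.4.6 and matplotlib 3.10.9 were used. The rescaling and the calls were tried on simulated data built only from genes with a mean of at least 5. Of the 68 members, 16 were listed at 0 throughout and 17 more stayed under 5. The simulation therefore cannot vouch for calls on such low values. Alternatives were deposited values, quantile normalization, factors read from the digits, 0.1 added, and 2 filters on low values.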

Additional observations from a re-analysis of the deposited data

Results flagged for a closer look

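For 3 histone genes a called difference had opposite directions in the 2 conditions compared, each on 1 value per column, and the difference between them was not tested. Hist1h2bb, an H2B gene, was higher in the null nucleus and lower in the null cytoplasm, with relative log2 differences, null minus WT, of 1.73 and -1.02, which are 2.75 apart. Its values were 2.18 in null and 0.110 in WT nuclei, and 0 in null and 3.50 in WT cytoplasms. Hist2h2ac, an H2A gene, was higher in the nucleus than in the cytoplasm in null oocytes (1.34) and lower in WT oocytes (-1.15), which are 2.48 apart. As deposited, these were 0.94 in null, under 2-fold, and -3.96 in WT. Its deposited values were under 1 in both nuclei, and its null cytoplasm was listed at 0. Hist2h2bb, an H2B gene, was likewise higher in the nucleus in null oocytes (1.27) and lower in WT oocytes (-1.42), which are 2.69 apart. As deposited, both were below 0, at -0.29 in null and -4.61 in WT, so the opposite directions rest on the rescaling. None of its 50-base stretches was its own in the annotated transcripts, overlapping gene models included.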

How the results depend on the processing

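Over all 6 alternatives the number of histone genes higher in null ranged over 20 to 30 in the nucleus and 19 to 25 in the cytoplasm, against 24 and 20 as reported. The numbers lower moved more, and the cause was not tested unless stated. Lower in the null nucleus (2 as reported) were 0 as deposited, 7 with quantile normalization, 9 with digit factors, 7 with 0.1 added, and 1 under each filter, where fewer genes were counted. Lower in the null cytoplasm (7) were 14 as deposited, 13 with quantile normalization, 12 with digit factors, 12 with 0.1 added, and 4 with at least 1 in 2 columns. Higher in the null nucleus than cytoplasm (10) were 6 as deposited, and lower (9) were 29 as deposited and 30 with digit factors. Higher in the WT nucleus than cytoplasm (3) were 0 as deposited and 5 with 0.1 added. Lower there (8) were 39 as deposited, 16 with quantile normalization, 25 with digit factors, 19 with 0.1 added and 5 with at least 1 in 2 columns. Of 37 called differences of named genes between null and WT, none reversed under the alternatives that gave a value. Among these 37, the call was lost for 2 as deposited, 2 with quantile normalization and 3 with digit factors. The last were Hist1h2ac (0.34), Hist1h3g (0.30) and Hist3h2a (0.64), all in the nucleus. Nucleus against cytoplasm, the null differences of Hist2h2bb and Hist2h4 changed sign as deposited, to -0.29 and -0.59. No paired analysis was possible because the table holds no column per library, and leaving out single libraries was not run for the same reason. Read depth is unknown, so no counting error can be given, and a value of 0 may be a failed estimate.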
